A study of Mus musculus with 4 samples.

Results

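The integrated stress response and the unfolded protein response were followed through 34 genes in mouse testis, chosen by their symbols, of 54232 genes in the count table. The set covers the kinases that phosphorylate the translation factor eIF2, the phosphatase subunits that reverse it, the transcription factors ATF4, ATF5, CHOP and their partners, amino acid genes that ATF4 is known to drive, and genes of the endoplasmic reticulum (ER). All 34 were found and all 34 had enough reads to be tested. RNA was sequenced from whole testes at postnatal day 17, an age of the first wave of meiosis. There were 4 libraries, 2 from mice labelled Dis3 WT and 2 from mice labelled Dis3 KO, all of the B6D2F1 cross and of the same age. The series calls the KO a conditional knockout, and the sources used here do not give the Cre line or the cells in which it acts. Dis3 is a catalytic subunit gene of the exosome, a complex that digests RNA from the 3′ end.

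In the integrated stress response, 4 kinases sense different stresses (PERK in the ER, GCN2 for uncharged tRNA, HRI for heme and mitochondrial stress, PKR for double-stranded RNA) and all phosphorylate the alpha subunit of eIF2. This lowers general translation and raises the translation of ATF4, whose targets supply amino acids, charge tRNAs and, through CHOP and the phosphatase subunit GADD34, end or redirect the response. The unfolded protein response adds the ER sensors IRE1 and ATF6, which act through spliced Xbp1 RNA and through cleaved ATF6. Reads per gene measure neither phosphorylation, nor ATF4 protein, nor the splicing of Xbp1.

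The gene table held between 17663416 and 40329170 reads per library, with the KO libraries below the WT libraries. Levels are CPM on TMM-scaled library sizes, and fold changes are log2 values of KO over WT with their SE, tested with edgeR's quasi-likelihood test over all 25076 tested genes. A gene is called higher or lower at a Benjamini-Hochberg adjusted p under 0.05. Whether each library is a separate animal is not stated in the labels, and the spread behind the p-values may be technical. Dis3 had 80.2 and 80.7 CPM in WT replicates 1 and 2 and 39.6 and 42.9 CPM in KO replicates 1 and 2, so the targeted gene matches the labels. Reads in regions upstream of untested genes gave a background of 2.68 to 2.85 reads per kilobase and strand in WT and 3.14 to 3.52 in KO, although the KO libraries were shallower. If the same rate holds within genes, background reads made up a larger share of a weakly expressed gene's reads in KO than in WT. Members with few reads are described relative to this background. Whether it includes transcripts that the exosome removes was not tested.

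Of the 34 genes, 4 were higher in KO, 9 were lower and 21 were not called. That is 11.8% higher and 26.5% lower. Over all tested genes 11.6% were higher and 20.3% were lower, and among the 16467 genes with at least 5 times the background reads 8.42% were higher and 30.9% lower. DESeq2 called 1 of the 34 higher and 9 lower, where it called 4.31% and 16.7% of all genes. With background subtracted 2 were higher and 9 lower, where 5.96% and 27.4% of all genes were. The shares of the stress response genes thus lay near those of other genes. Their median log2 fold change was -0.09, against 0.05 over all tested genes and -0.12 over those at 5 times background or more. Both KO libraries lay above both WT libraries for 8 of the 34 and below them for 14, and the groups overlapped for 12. Over all tested genes the first held for 35.6% and the second for 32.7%. Among the 16467 genes at 5 times background or more, the first held for 3641 and the second for 7909. The split between higher and lower depended on the library scale. It was 2 and 9 with median-of-ratios scaling, 2 and 15 when libraries were scaled to Sertoli cell genes, and 5 and 7 when background was subtracted and the libraries were scaled anew. The count of higher members also changed when a library was left out, to 2 without WT replicate 1, WT replicate 2 or KO replicate 2 and to 1 without KO replicate 1.

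**Figure D1:**
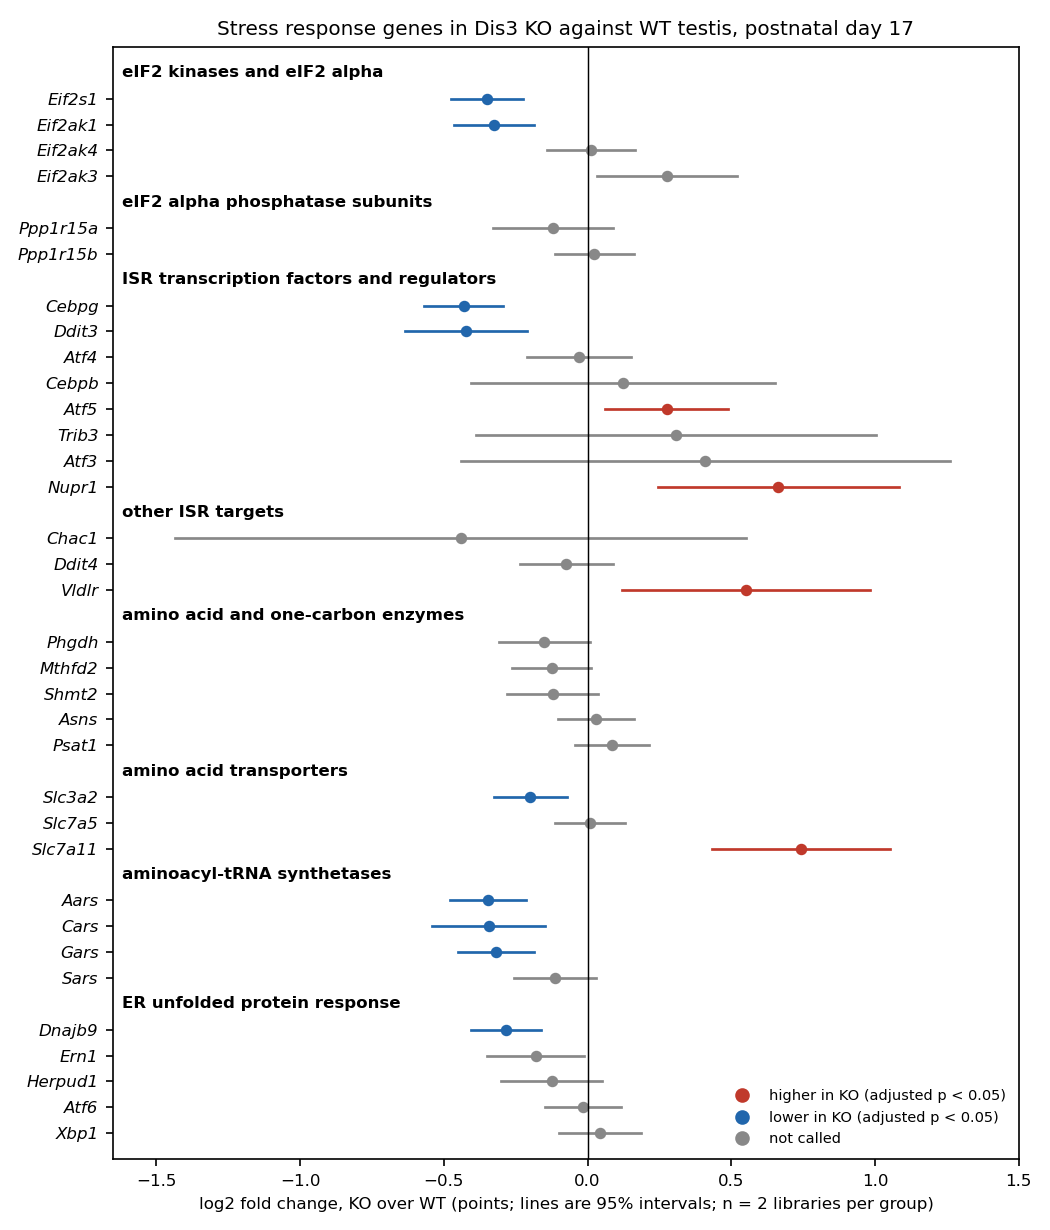
Log2 fold changes (KO over WT, horizontal axis) of the 34 genes grouped by role, with 95% intervals from the edgeR fit (n = 2 libraries per group). The 4 higher genes (red) are spread over 3 groups, 9 genes are lower (blue), and 21 are not called (grey).

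Markers of several testis cell types differed as well. Summed markers of pachytene spermatocytes, the germ cells of mid-meiotic prophase, went from 5924 and 6162 CPM in WT replicates 1 and 2 to 3952 and 3577 CPM in KO, and 11 of 12 of these markers were lower. Of 13 early meiotic markers 11 were lower and of 12 spermatogonial markers 5. Macrophage markers went from 200.1 and 195 CPM to 321 and 315 CPM, with 10 of 12 higher, and 7 of 21 Sertoli cell markers were higher. Of 10 Leydig cell markers 3 were higher and 3 lower, of 9 peritubular myoid markers 3 and 1, of 8 endothelial markers 2 and 0, and of 3 tested blood cell genes 0 and 3. No list had a marker at 0 in all libraries. In bulk testis fewer cells of a type and less RNA per cell cannot be told apart, and the part of these shifts in the results below was not tested.

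The factor that receives the signal and 1 of its kinases were lower. Eif2s1, which encodes eIF2 alpha (ENSMUSG00000021116, GRCm38 chromosome 12, 78861819 to 78887010), had 158 and 155 CPM in WT replicates 1 and 2 and 124 and 122 CPM in KO. Its log2 fold change was -0.35 ± 0.0599 (edgeR adjusted p = 8.7e-05), with no overlap between the groups. Eif2ak1, the gene of the kinase HRI (chromosome 5, 143817788 to 143904251), had 83.7 and 85.5 CPM in WT and 69.9 and 65.2 CPM in KO, which gave -0.33 ± 0.0677 (adjusted p = 0.000689).

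The other kinases of the set were not called. Eif2ak3, which encodes PERK, had 18.4 and 14.5 CPM in WT and 19.9 and 19.8 CPM in KO. The KO libraries were above the WT libraries, WT replicate 2 being the lowest, and the log2 fold change of 0.28 ± 0.117 missed the threshold (adjusted p = 0.0751). Without WT replicate 1 it was 0.41 (adjusted p = 0.0193) and without WT replicate 2 it was 0.094 (0.675), and it was called in 4 of 13 other settings. Eif2ak4, which encodes GCN2, had a log2 fold change of 0.01 with a 95% interval from -0.14 to 0.17. For the phosphatase subunits, the interval of Ppp1r15a (GADD34, the stress-induced subunit) ran from -0.33 to 0.09 and that of Ppp1r15b (CReP, the constitutive subunit) from -0.11 to 0.16.

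Among the transcription factors and their regulators, Atf4 itself showed no call. It had 91.8 and 78.2 CPM in WT replicates 1 and 2 and 90.0 and 76.5 CPM in KO, for a log2 fold change of -0.03 ± 0.0853 with a 95% interval from -0.21 to 0.15. Replicates differed more than genotypes, since WT replicate 1 and KO replicate 1 were the high libraries. At 36.0 RPKM in WT, CPM divided by the exon length in kilobases, Atf4 ranked 5th of the 34 genes in level per length.

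Ddit3, which encodes CHOP, a factor tied to prolonged ER stress (ENSMUSG00000025408, chromosome 10, 127290774 to 127296288), was lower. It had 24.1 and 22.8 CPM in WT and 18.2 and 16.9 CPM in KO. The log2 fold change was -0.42 ± 0.102 (edgeR adjusted p = 0.00285). A second annotated record of the same name shares 6.13% of its exon bases on the same strand, where reads were not assigned. Cebpg, the dimer partner of ATF4 (ENSMUSG00000056216, chromosome 7, 35046422 to 35056573), had 103 and 99.6 CPM in WT and 78.4 and 71.9 CPM in KO, for a log2 fold change of -0.43 ± 0.0666 (adjusted p = 2.6e-05). In both genes each KO library was below each WT library.

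Atf5 and Nupr1 were the higher genes of this group. Atf5, which encodes a factor of the mitochondrial stress response (chromosome 7, 44812256 to 44816658), had 17.4 and 17.3 CPM in WT and 20.4 and 21.6 CPM in KO. The log2 fold change was 0.28 ± 0.103, just past the threshold (edgeR adjusted p = 0.0449), and the call was lost in 10 of 13 other settings, where its adjusted p ranged from 0.00791 to 0.483. These included each of the fits that left out 1 library (adjusted p = 0.179 and 0.194 without WT replicates 1 and 2, and 0.0975 and 0.392 without KO replicates 1 and 2). Nupr1, a small stress-induced nuclear regulator (chromosome 7, 126623249 to 126630861), had 3.18 and 3.30 CPM in WT and 5.49 and 4.81 CPM in KO, from 94 to 125 reads per library. Its log2 fold change was 0.66 ± 0.203 (adjusted p = 0.0150), with adjusted p from 0.00543 to 0.197 over the settings. It was not called by DESeq2 (adjusted p = 0.0943), without WT replicate 1 (0.0566) or without KO replicate 1 (0.122).

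Atf3, an early ATF4 target, had 26 and 39 reads in WT, and in KO 15 and 35. The groups overlapped, KO replicate 2 had the highest CPM and KO replicate 1 the lowest, and the log2 fold change of 0.41 had a 95% interval from -0.44 to 1.26. Trib3, a pseudokinase that feeds back on the response, had 29 to 54 reads per library and an interval from -0.39 to 1.0. Cebpb, with 42 to 104 reads, had an interval from -0.40 to 0.65. The intervals of these 3 genes hold differences in both directions.

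**Figure D2:**
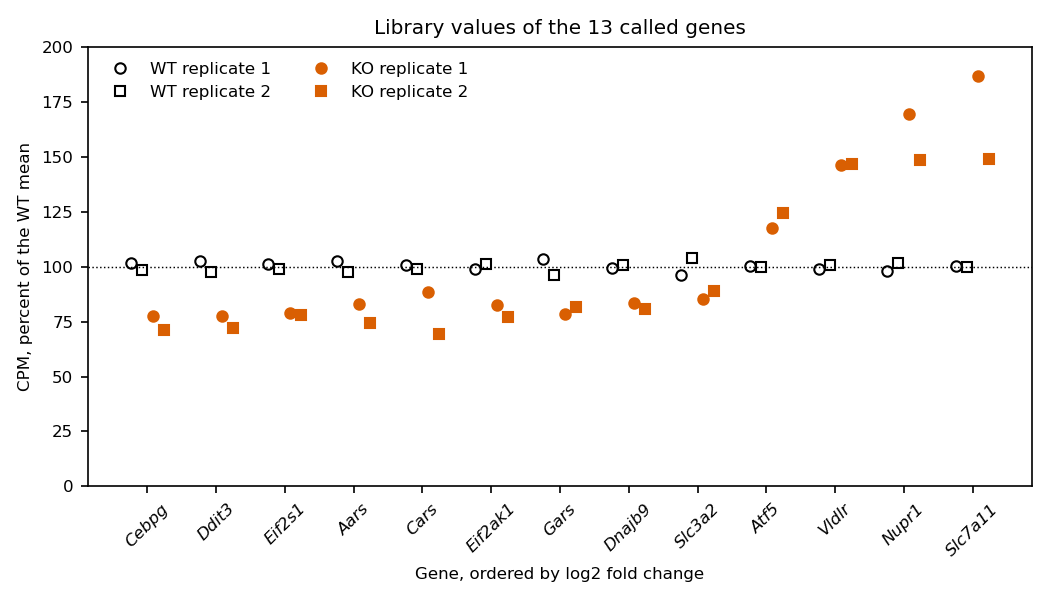
CPM of each library as a percent of the WT mean (vertical axis, starting at 0) for the 13 called genes, ordered by log2 fold change. WT libraries (open) stay near 100%, and both KO libraries (filled) lie below them for 9 genes and above them for 4. These genes were chosen by their call in the same libraries, so the separation adds no support. Over all tested genes both KO libraries lay below both WT libraries for 32.7% and above them for 35.6%.

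Of the remaining ATF4 and CHOP targets, Vldlr was higher and Chac1 and Ddit4 were not called. Vldlr, a lipoprotein receptor gene (chromosome 19, 27216484 to 27254231), had 3.08 and 3.14 CPM in WT and 4.55 and 4.56 CPM in KO, for a log2 fold change of 0.55 ± 0.209 (edgeR adjusted p = 0.0471). Its reads were 3.15 times background, the lowest ratio of the 34 genes, and after background was subtracted the value was 0.32 with an adjusted p of 0.390. The call was lost in 11 of 13 settings, with adjusted p from 0.0206 to 0.390, and in each fit without 1 library (adjusted p = 0.138 and 0.141 without WT replicates 1 and 2, and 0.149 and 0.201 without KO replicates 1 and 2). Chac1, which encodes an enzyme that breaks down glutathione, had 11 to 48 reads per library and overlapping groups. Its reads were 4.66 times background. Its log2 fold change was -0.44, and after subtraction -0.95, not called (edgeR adjusted p = 0.363). Ddit4, an inhibitor of mTORC1 signalling, had a 95% interval from -0.24 to 0.09.

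The enzymes that make serine, asparagine and one-carbon units, a common readout of ATF4 activity, were not called in any of 5 genes. Most genes were not called either, 17078 of all 25076 tested genes and 9999 of the 16467 at 5 times background or more. Asns, asparagine synthetase, had 92.4 and 90.2 CPM in WT and 90.8 and 95.5 CPM in KO, and its log2 fold change of 0.03 had a 95% interval from -0.10 to 0.16. Psat1, of serine synthesis, was at 0.09 (interval -0.04 to 0.22). Phgdh, the first enzyme of serine synthesis, and the mitochondrial one-carbon enzymes Shmt2 and Mthfd2 were at -0.15, -0.12 and -0.12. Calls in this group depended on the library scale and on the filter. Scaling to Sertoli cell genes called Phgdh, Shmt2 and Mthfd2 lower, and background subtraction with scaling anew called Psat1 higher (0.22, edgeR adjusted p = 0.00992). A filter of at least 1 CPM in 2 libraries also called Psat1 higher (0.15, edgeR adjusted p = 0.0432). DESeq2 without a filter called Mthfd2 lower (-0.23, adjusted p = 0.0431). Without KO replicate 2, Phgdh was called lower (-0.31, adjusted p = 0.00491), and without KO replicate 1 it was at -0.08 (0.563).

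Of the 3 amino acid transporter genes 1 was higher, 1 was lower and 1 was not called. Slc7a11, the cystine importer xCT that supplies glutathione synthesis (ENSMUSG00000027737, chromosome 3, 49892526 to 50443614), had 6.80 and 6.78 CPM in WT and 12.7 and 10.1 CPM in KO, 1.67 times the WT level. The log2 fold change of 0.74 ± 0.149 was the largest of the 34 genes (edgeR adjusted p = 0.000493) and was called in each of the 13 other settings, with adjusted p of 0.0209 or less. Its level per length was low, at 0.488 RPKM in WT. Its reads were 5.28 times background, and after subtraction it was still called (0.67, adjusted p = 0.00725). Slc3a2, the heavy chain that carries xCT and LAT1 to the membrane (chromosome 19, 8706882 to 8723369), had 239 and 257 CPM in WT and 211 and 221 CPM in KO. Its log2 fold change was -0.20 ± 0.061 (adjusted p = 0.0152). Without WT replicate 2 its adjusted p was 0.222, and over the settings it ranged from 9.66e-05 to 0.436. Slc7a5, the neutral amino acid transporter LAT1, had the highest level per length of the set, 158 RPKM in WT and 159 in KO, with an interval of its log2 fold change from -0.11 to 0.13.

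The promoter of Slc7a11 is shown because it belongs to the member with the largest difference and holds the core of the element through which ATF4 and C/EBP factors bind, TGATGNAA, in both orientations. The stretch covers 150 to 2 bases before the start (RefSeq, GRCm38.p6, chr3:50443615-50443763, minus strand, 5′ to 3′, cores in capitals), and the cores lie 11 bases apart.
Slc7a11 promoter: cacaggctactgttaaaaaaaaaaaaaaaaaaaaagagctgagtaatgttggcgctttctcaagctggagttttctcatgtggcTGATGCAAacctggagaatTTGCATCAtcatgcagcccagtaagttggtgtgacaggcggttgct

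Cytosolic aminoacyl-tRNA synthetases, which charge tRNAs and some of which are ATF4 targets, were lower in 3 of 4 members. Aars, the alanyl enzyme (chromosome 8, 111033144 to 111057664), had 194 and 184 CPM in WT and 156 and 141 CPM in KO. The log2 fold change was -0.35 ± 0.0635 (edgeR adjusted p = 0.000186). It shares 14.3% of its exon bases with another gene on the same strand, where reads were not assigned. Gars, the glycyl enzyme (chromosome 6, 55038007 to 55079500), had 129 and 120 CPM in WT and 98.1 and 102 CPM in KO (-0.32 ± 0.0639, adjusted p = 0.000493).

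Cars, the cysteinyl enzyme (chromosome 7, 143557230 to 143600090), had 47.6 and 46.7 CPM in WT and 41.8 and 32.6 CPM in KO, for a log2 fold change of -0.34 ± 0.0943 (adjusted p = 0.00817). KO replicate 2 was the lowest library, and without it the value was -0.23 with an adjusted p of 0.0824. Its adjusted p ranged from 9.62e-07 to 0.0884 over the settings. Sars, the seryl enzyme, was at -0.11 (interval -0.26 to 0.03). Its KO libraries were below its WT libraries, and it was not called.

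In the ER group 1 of 5 genes was lower. Dnajb9, the ER co-chaperone ERdj4 and a target of XBP1 (chromosome 12, 44205559 to 44210326), had 234 and 237 CPM in WT and 197 and 191 CPM in KO. The log2 fold change was -0.28 ± 0.0585 (edgeR adjusted p = 0.000662). Xbp1 had 63.8 and 65.2 CPM in WT and 66.2 and 66.8 CPM in KO, for a log2 fold change of 0.04 with an interval from -0.10 to 0.18. Ern1, which encodes IRE1, had 41.4 and 46.4 CPM in WT and 39.0 and 38.6 CPM in KO (-0.18, adjusted p = 0.0946), and without WT replicate 1 it was called (-0.30, adjusted p = 0.0223), while without WT replicate 2 it was at -0.11 (0.515). Atf6 had an interval from -0.15 to 0.12. Herpud1, of ER-associated degradation, had one from -0.30 to 0.05, and without KO replicate 1 it was called lower (-0.26, adjusted p = 0.0411), while without KO replicate 2 it was at -0.07 (0.668).

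**Figure D3:**
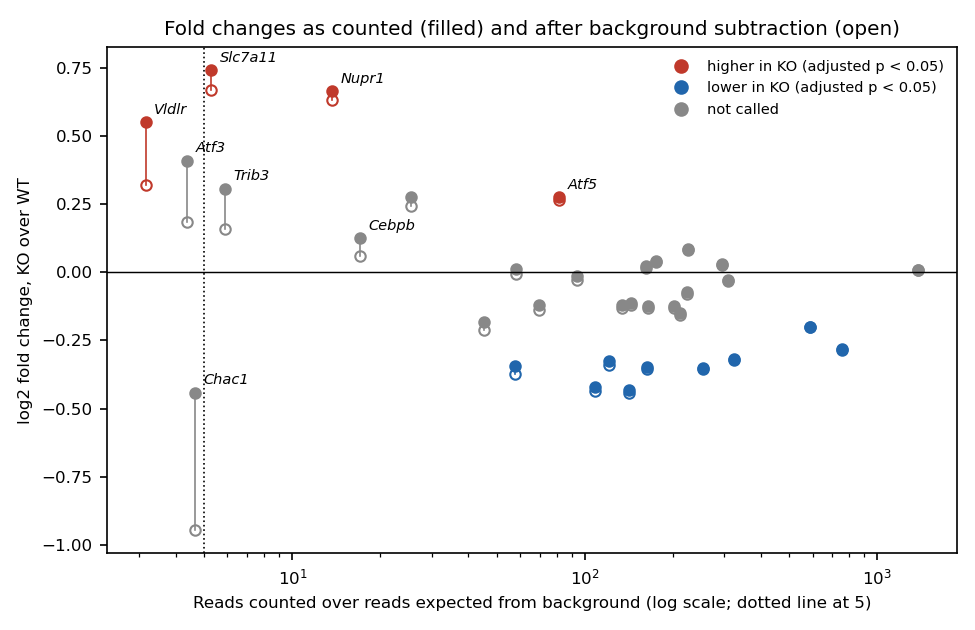
Log2 fold change (KO over WT, vertical axis) of the 34 genes against reads counted over reads expected from background (log scale), as counted (filled) and after subtraction of background with the library scale kept (open). The 9 lower genes lie far to the right of the dotted line at 5, while Vldlr (3.15) and Slc7a11 (5.28) lie at its sides. Over the whole table, of the 8609 tested genes under 5 times background 0.128% were lower and 17.6% higher, with a median of 0.73.

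Genes beyond the 34 were described by lists of the same pathways, most of whose genes were at 5 times background or more, where 30.9% of genes were lower and 8.42% higher. Of 16 other cytosolic synthetase genes 13 were lower, 0 were higher and 3 were not called, with a median log2 fold change of -0.26. Dars (-0.42 ± 0.0584), Qars (-0.39 ± 0.06), Farsb (-0.35 ± 0.0706) and Vars (-0.33 ± 0.0648) are the 4 with the smallest adjusted p. Dars, the aspartyl enzyme, had 283 and 290 CPM in WT replicates 1 and 2 and 213 and 216 CPM in KO. The count of lower genes was 8 without WT replicate 2, 5 with background subtracted and the libraries scaled anew, and 15 with scaling to Sertoli cell genes. The median of the list ranged from -0.40 to -0.14 over the settings tried.

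Partners of eIF2 alpha in translation initiation were mostly lower too. Of 15 genes of eIF2, its exchange factor eIF2B and their regulators, 10 were lower and 2 higher (median -0.29). Eif2s2, the beta subunit, had 180.0 and 177 CPM in WT and 145 and 140 CPM in KO (-0.33 ± 0.0591), and Eif2b5, the catalytic subunit of eIF2B, was at -0.42 ± 0.0732. Eif5, which stimulates GTP hydrolysis by eIF2, was at -0.34 ± 0.0603, and the adaptor gene Nck1 at -0.44 ± 0.0774. The higher genes were Impact, an inhibitor of GCN2 activation (11.0 and 11.0 CPM in WT, 14.6 and 15.5 CPM in KO, 0.45 ± 0.121), and Eif2ak2, which encodes PKR (26.3 and 27.7 CPM in WT, 34.5 and 30.9 CPM in KO, 0.27 ± 0.0908). With scaling to Sertoli cell genes neither was called (adjusted p = 0.0546 and 0.301), nor was Eif2ak2 with DESeq2 (0.140). Impact was also not called without KO replicate 2, and Eif2ak2 without WT replicate 1, WT replicate 2 or KO replicate 1.

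ER chaperones and folding enzymes included 10 lower genes and 1 higher gene of 20 (median -0.19), and the lower genes numbered 17 with scaling to Sertoli cell genes and 5 with background subtracted and scaling anew. The chaperone genes Sdf2l1 (-0.52 ± 0.0712), Hyou1 (-0.36 ± 0.0588) and Dnajb11 (-0.35 ± 0.0632) and the oxidase gene Ero1lb (-0.48 ± 0.0653) were lower. Hspa5, which encodes BiP, the chaperone most used to read ER stress, had 820 and 823 CPM in WT and 760 and 788 CPM in KO. Both KO libraries were below both WT libraries, and the log2 fold change of -0.09 ± 0.0601 was not called (adjusted p = 0.281). Scaled to Sertoli cell genes it was called (-0.22, adjusted p = 0.00653). Txndc5, a disulfide isomerase gene, was higher (0.23 ± 0.0692) and was not called by DESeq2 (adjusted p = 0.0911) or with Sertoli scaling (0.386), nor in any of the 4 fits without 1 library.

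Genes of ER-associated degradation and of translocation into the ER held 6 lower and 0 higher of 20 (30% lower, median -0.13), a share near the 30.9% of genes at 5 times background or more. The lower genes numbered 3 without WT replicate 2, 13 with Sertoli scaling and 3 with background subtracted and scaling anew. Among them were the ubiquitin ligase gene Syvn1 (-0.42 ± 0.0653), Erlec1 (-0.39 ± 0.0607), the segregase gene Vcp (-0.35 ± 0.0584) and Ube2j1 (-0.25 ± 0.0659), the latter not without WT replicate 2. Among 9 relatives of ATF6 and their proteases, Creb3l1 was higher, with 48.6 and 45.8 CPM in WT and 65.0 and 65.2 CPM in KO (0.46 ± 0.0724, edgeR adjusted p = 2.86e-05). Atf6b (-0.33 ± 0.085) and Creb3l4 (-0.79 ± 0.238) were lower, Creb3l4 not by DESeq2 (adjusted p = 0.0761) or without WT replicate 2, and Atf6b not without KO replicate 1.

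Of 30 other ATF4 targets and amino acid response genes, 4 were higher, 2 were lower and 24 were not called (median 0.08). The higher ones were Mthfd1 (0.29 ± 0.0849), Got1 (0.27 ± 0.103), Sesn2 (0.18 ± 0.0657), an inhibitor of mTORC1, and Slc7a1 (0.17 ± 0.0585), the arginine transporter. None of these 4 was called by DESeq2 or with scaling to Sertoli cell genes. With 1 library left out, 0 genes of the list were higher without WT replicate 2 or KO replicate 2, 1 without WT replicate 1 and 2 without KO replicate 1. Shmt1, the cytosolic partner of Shmt2, was lower (-0.47 ± 0.0794), as was the serine synthesis gene Psph (-0.28 ± 0.0933). Psph was not called by DESeq2 (adjusted p = 0.0765) or without WT replicate 2 or KO replicate 2.

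The mitochondrial stress genes, some of which act upstream of HRI, held 5 lower and 0 higher of 10 (median -0.24). The lower ones numbered 3 without WT replicate 2, 3 with DESeq2, 1 with background subtracted and scaling anew, and 10 with Sertoli scaling. Dele1, whose product relays mitochondrial stress to HRI, had 130 and 138 CPM in WT and 93.7 and 84.9 CPM in KO (-0.59 ± 0.0662, edgeR adjusted p = 3.82e-07). The chaperone genes Hspa9 (-0.28 ± 0.0591) and Hspe1 (-0.26 ± 0.0651) and the protease gene Htra2 (-0.43 ± 0.132) were lower as well. Of 18 immediate early genes, which stimulation and tissue handling induce, 2 were higher (Egr2, 0.74 ± 0.175, and Zfp36, 0.25 ± 0.083) and 2 lower (Nr4a1, -1.99 ± 0.0861, and Fosl2, -0.26 ± 0.0919). DESeq2 did not call Htra2, Zfp36 or Fosl2 (adjusted p = 0.0654, 0.142 and 0.0984). Htra2 was also lost without WT replicate 2 or KO replicate 1, Zfp36 without either WT replicate or KO replicate 2, and Fosl2 without WT replicate 1 or KO replicate 1. With background subtracted and scaling anew, Ube2j1, Atf6b, Psph, Hspa9, Hspe1, Htra2 and Fosl2 were not called. Across the 8 lists 10 of 136 genes were higher (7.35%) and 49 lower (36.0%), beside 8.42% and 30.9% of the genes at 5 times background or more, where 128 of the 136 lie. This split was 2 and 76 with scaling to Sertoli cell genes and 20 and 23 with background subtracted and the libraries scaled anew. Over all genes it was 1873 and 7161, and 2494 and 3351, in the same settings.

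**Figure D4:**
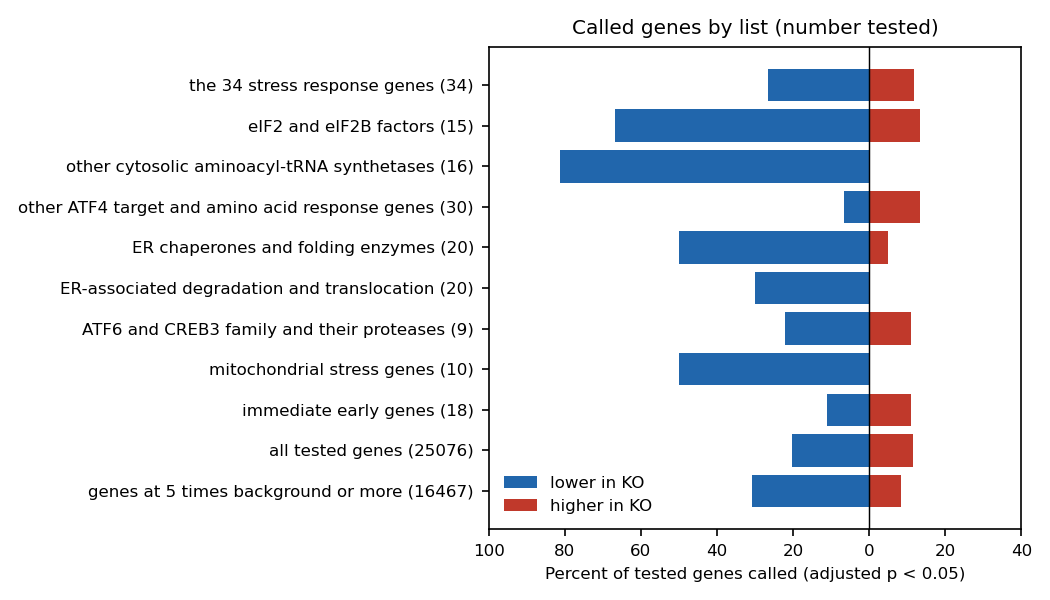
Percent of tested genes called higher (right, red) or lower (left, blue) in KO for the 34 genes, the 8 wider lists and all genes, with the number tested in parentheses. The other synthetases reach 81.2% lower and 0% higher, against 26.5% and 11.8% in the 34 genes 20.3% and 11.6% over all tested genes, and 30.9% and 8.42% over genes at 5 times background or more.

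Promoters were searched for the elements of both pathways, over the 250 bases before each start in RefSeq's table (30 of the 34 genes had an entry). TGATGNAA, on either strand, occurred in 9 of the 30 promoters (30%) and in 3.91% of all 27025 genes of the table. On the gene strand alone it occurred in 2 of the 30 (6.67%) and in 2.07% of all genes. With 50 bases after the start included it occurred in 10 of the 30, Trib3 being added, and in 4.51% of all genes. Of the 9 genes with the core before the start, 3 were higher in KO, 2 were lower and 4 were not called. Of the 21 members whose promoter lacked the core on either strand, 1 was higher, 6 were lower and 14 were not called. Over all tested genes 11.6% were higher and 20.3% lower. Whether the core goes with the direction of a difference was not tested. The windows of Nupr1, Vldlr and Asns overlap an annotated exon. For the genes listed here, 30-base windows (RefSeq, GRCm38.p6) show the core in capitals, 5′ to 3′ on the strand of the gene. Higher genes come first, then a lower gene, then the uncalled genes.
Nupr1 (chr7:126625562-126625591, minus strand): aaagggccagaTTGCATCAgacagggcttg
Vldlr (chr19:27216809-27216838, plus strand): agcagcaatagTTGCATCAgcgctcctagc
Gars (chr6:55037960-55037989, plus strand): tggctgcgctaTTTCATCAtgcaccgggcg
Asns (chr6:7693214-7693243, minus strand): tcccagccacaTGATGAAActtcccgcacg
Atf3 (chr1:191183425-191183454, minus strand): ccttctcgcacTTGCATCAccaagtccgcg
Chac1 (chr2:119351038-119351067, plus strand): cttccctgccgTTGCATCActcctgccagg
Herpud1 (chr8:94386306-94386335, plus strand): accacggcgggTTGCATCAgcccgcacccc

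The ER stress response element, CCAAT and CCACG separated by 9 bases, bound by NF-Y with ATF6, was in none of the 30 promoters and in 0.13% of all genes. It was in 7 of the 16 matched chaperone promoters and in 2 of 16 of the degradation and translocation list, and of these 9 genes 6 were lower in KO, 0 were higher and 3 were not called, where 50% of the whole chaperone list and 30.9% of genes at 5 times background or more were lower. The core TGACGTGG, bound by XBP1 and ATF6, which ends in the reverse complement of CCACG and can overlap it, was likewise in 0 of the 30, and in 0.603% of all genes. A pair of lower genes and the uncalled Hspa5, whose window overlaps an annotated exon, show the ER element, with its CCAAT and CCACG in capitals.
Syvn1 (chr19:6046527-6046556, plus strand): cgcaaCCAATcggcggtagCCACGggaaca
Pdia6 (chr12:17266486-17266515, plus strand): agagaCCAATgaaaggcggCCACGgcgtgg
Hspa5 (chr2:34772020-34772049, plus strand): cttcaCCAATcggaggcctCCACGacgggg

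Reads in the 3000 bases upstream of genes, where transcripts that the exosome removes can arise, were counted by the authors on both strands, and 17 of the 34 genes had such a region. On the sense strand 12 were tested and 0 were called, where 0.0544% of all regions were higher and 0.00544% lower. At an unadjusted p under 0.05 edgeR counted 3 sense member regions (Gars, Slc7a11 and Chac1) beside 31.6% of all tested sense regions, and 3 antisense ones (Slc7a11, Phgdh and Ern1) beside 39.0%. On the antisense strand 15 were tested and 1 was higher, where 11.5% of all regions were higher and 0.113% lower. That region, upstream of Slc7a11 (chromosome 3, 50443615 to 50446614), had 3 and 7 reads in WT, and in KO 12 and 12. The log2 fold change was 2.05 ± 0.635 (edgeR adjusted p = 0.0487). The same region on the sense strand had 4 and 2 reads in WT and 10 and 13 in KO (2.65, adjusted p = 0.0741). The median over all tested regions was 1.01 antisense and 0.93 sense. The antisense call of Slc7a11 was lost in each fit without 1 library (adjusted p = 0.0766 and 0.0907 without WT replicates 1 and 2, 0.345 and 0.285 without KO replicates 1 and 2). It was also lost with the upstream table scaled on itself (1.11, adjusted p = 0.806), where the antisense region of Gars was called lower (-1.35, adjusted p = 0.0268). Without WT replicate 1, the sense regions of Slc7a11, Gars, Phgdh and Shmt2 had log2 fold changes of 3.37, 1.84, 2.28 and 2.11. The antisense regions of Ddit4, Ern1 and Phgdh had 2.82, 1.98 and 1.81. Without WT replicate 2 the sense region of Gars was at 2.94. These regions were picked by their calls in those fits, which leave 1 WT library. The share of all regions called there is not given here.

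The median member region held 11 sense or 12.5 antisense reads in a library, near the background of 8.05 to 10.6 reads per region. The region with most reads was antisense of Gars, with 103 and 112 reads in WT and 48 and 45 in KO (-0.42, adjusted p = 0.216). On the sense strand it had 5 and 14 reads in WT and 23 and 29 in KO (2.25, adjusted p = 0.0706). Sense reads upstream of Asns numbered 48 and 71 in WT and 36 and 34 in KO, a log2 fold change of 0.05.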

How the data were processed

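Testis RNA was sequenced in 2 WT and 2 KO libraries with strand selection, per the labels' protocols. The labels name the molecule polyA RNA, while the protocol describes random and poly(T) priming. The values are raw read counts per gene and per 3000-base upstream region that, per the file headers, the authors made with featureCounts 1.6.4 and annotation GENCODE M18. Reads mapping to several places or to overlapping genes were not counted under the recorded options. Cutadapt, HISAT2 and GRCm38.p5 are named in the submitters' processing notes, without versions of the aligner or trimmer. Groups and replicate numbers come from the titles.

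Counts were fitted over the whole table with edgeR 4.0.16 in R 4.3.3 by a robust quasi-likelihood model of genotype alone. Weak genes were dropped by filterByExpr, libraries were scaled by TMM (factors 0.942 to 1.07 over the library sizes) and p-values were adjusted by Benjamini-Hochberg. The SE is the log2 fold change divided by the square root of F. Upstream regions were fitted on the gene table's library scale. RPKM was computed over the exon length in the table. Background is the mean of upstream regions of 14248 untested autosomal genes, averaged over both strands, trimmed by a fraction of 0.25 on either side. This rate times gene length was subtracted in 2 of the alternatives. The fit was tested on simulated data. Symbols came from GENCODE M21 (99.72% matched), and promoters from RefSeq's table (GRCm38.p6), which has no entry for Atf6, Slc7a5, Ppp1r15b and Cars. The window of 1 promoter match is not reported here.

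The members, lists and tests were chosen with earlier results of these data known. Every member is named, with library values for called members and for Atf4, Atf3, Ddit3, Xbp1, Hspa5 and Dis3, and up to 4 called genes per list and direction with the smallest adjusted p. Pdia6, and the library values of Ern1, Asns, Eif2ak3 and of some list genes, were picked after values were seen. The alternatives tried were a replicate block, DESeq2 1.42.0, leaving out each library, scaling by median of ratios or by Sertoli cell genes, background subtraction, and either no filter or at least 1 CPM in 2 of the libraries. Subtraction with scaling anew and DESeq2 without a filter were added after the data were seen. DESeq2 was run first without a filter, and was set to the genes of the edgeR fit after that result was seen; both are given. Replicates differed beyond sampling noise (chi-square per degree of freedom 4.54 in WT and 5.08 in KO).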

Additional observations from a re-analysis of the deposited data

How the results depend on the processing

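Of the 13 called members, 8 (Ddit3, Slc7a11, Eif2ak1, Eif2s1, Cebpg, Dnajb9, Aars and Gars) kept their call in all 13 other settings, and 0 of the 13 reversed. Uncalled members changed sign in up to 8 of 34 genes per setting and were counted as unchanged, since neither value was called. The cause of the changes below was not tested.

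The 4 higher and 9 lower members became 1 higher with DESeq2 and 1 with DESeq2 without a filter, 2 with median-of-ratios scaling, 2 with no filter, 2 with Sertoli scaling (15 lower), 2 with background subtracted, and 1 to 2 with 1 library left out. The higher count rose with the 1 CPM filter, to 6 higher and 8 lower of 32 tested members. It also rose with background subtracted and scaling anew, to 5 higher and 7 lower. The median of members (-0.093) was -0.1122 with DESeq2, -0.1989 with DESeq2 without a filter, -0.1121 with median-of-ratios scaling, -0.1628 with no filter, -0.02539 with the 1 CPM filter, -0.2258 with Sertoli scaling, 0.03667 with background subtracted and scaling anew, and -0.1636 to -0.0802 with 1 library left out. Over all genes it moved from 0.051 to -0.0818 with Sertoli scaling, 0.213 with no filter, -0.138 with background subtracted and 0.179 with DESeq2 without a filter.

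Pathway list genes higher (10) numbered 3 with DESeq2, 1 with DESeq2 without a filter, 3 with no filter, 16 with the 1 CPM filter, 2 with Sertoli scaling, 20 with subtraction and scaling anew, and 3 to 7 with 1 library left out. Those lower (49) numbered 76 with Sertoli scaling and 23 with scaling anew. Of all genes, 2906 were higher, and this became 1081 with DESeq2, 443 with DESeq2 without a filter, 1937 with no filter, 1873 with Sertoli scaling (7161 lower), 1179 with background subtracted, and 1324 to 2429 with 1 library left out. The 5092 lower became 3351 with subtraction and scaling anew (2494 higher). Of the upstream regions of members, 0 on the sense strand and 1 on the antisense strand were called, and both counts changed with 1 library left out. Over all regions 0.0544% of sense ones and 11.5% of antisense ones were higher. The shares of all regions called in the other fits are not given here. On the gene strand only, 2 member promoters held TGATGNAA in place of 9.

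The replicate block gave 5 higher and 9 lower members, adding Eif2ak3 (0.28, adjusted p = 0.0286), and 2 sense upstream regions in place of 0 (Gars and Slc7a11). It gave 3362 higher and 5469 lower genes over the table and changed no other call of a member. Deviations of same-numbered libraries correlated with r = 0.0141, and with 2 pairs the numbers are not shown to pair the libraries. Low read numbers go with wide intervals in Atf3, Chac1 and Trib3, and the member upstream regions held a median of 11.0 sense and 12.5 antisense reads per library.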
